A study of Rattus norvegicus with 9 samples.

Results

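The 10 genes described here encode the NFAT transcription factors (Nfatc1, Nfatc2, Nfatc3, Nfatc4 and Nfat5), the subunits of the phosphatase calcineurin (the catalytic Ppp3ca, Ppp3cb and Ppp3cc and the regulatory Ppp3r1) and the calcineurin regulator Rcan1. They were matched by gene symbol among 18006 genes with a value in each of 9 RNA-seq samples, and all 10 were found. The samples were RBL-2H3 cells (RBLs), a rat basophilic leukemia line that carries the IgE receptor and serves as a model of mast cells (MCs). Each gene has 1 value per sample, a transcript level scaled to gene length and sequencing depth and read here as FPKM (fragments per kilobase of transcript, scaled to the mapped fragments of the library).

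The 9 samples fell into 3 groups of 3. The IgE/DNP cells were sensitized with anti-DNP IgE at 50 ng/mL for 12 h and then stimulated with the antigen DNP-HSA at 100 ng/mL for 4 h. The PF cells had the same sensitization, were pretreated with PF for 1 h and were then stimulated with DNP-HSA at 100 ng/mL. PF is not identified in the labels. One label gives the 3 PF replicates stimulation times of 4, 5 and 6 h in replicate order, and another gives 4 h, so replicate and time cannot be told apart within PF. Under the first of these labels, PF pretreatment and a longer stimulation also differ together between PF and IgE/DNP cells. The Ctrl cells are called untreated in one label, although a protocol shared by all 9 samples lists sensitization and stimulation. The study describes its RNA-seq as a comparison of cells with and without DNP-HSA for 4 h. By that account the Ctrl cells had no antigen, and whether they had IgE is not stated. If they had no IgE, sensitization with IgE and stimulation with antigen cannot be told apart in IgE/DNP against Ctrl. Below, "after stimulation" stands for this comparison. All groups share 1 cell line and culture medium, and the labels do not say that replicates were separate cultures, so p-values measure only the spread between these samples. The labels call the tissue peripheral blood and the cell type blood corpuscle. Of 12 mast cell and basophil markers 11 had values, and all 11 were at 1 FPKM or more in all 9 samples, with sums of 5376 to 5770 FPKM. Within these sums Srgn alone was at 2688 to 3004 FPKM, and Mcpt1 was at 5.58 to 11.0. The summed markers of T cells (8.3 to 10.9 FPKM), B cells (0.36 to 1.15), macrophages (1.52 to 2.62), fibroblasts (0.35 to 0.63) and erythroid cells (1.15 to 3.25) were far lower, and none of these markers was at 0 in all 9 samples. The sums cover different numbers of genes, and Cd3e, at 6.74 to 9.52 FPKM, made up most of the T cell sum.

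Cross-linking of the IgE receptor raises calcium in the cytosol, calmodulin then activates calcineurin, and calcineurin strips phosphates from NFATc proteins, which enter the nucleus and switch on cytokine genes. Nfat5 is the member of the family that lacks the calcineurin docking region and is known for its response to osmotic stress. Rcan1 binds and restrains calcineurin, and one of its transcripts is a textbook target of NFAT, so that the pathway feeds back on itself. RNA-seq measured the transcripts of these genes, not the phosphorylation or location of the proteins, and the values are per gene, so the transcripts of Rcan1 could not be told apart.

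Promoter windows from RefSeq (build GRCr8, 250 bases before to 50 bases after the listed start) were at hand for 5 of the 10 genes, namely Nfatc2, Rcan1, Ppp3ca, Ppp3cb and Ppp3r1. The windows of Rcan1, of Ppp3ca, the most abundant catalytic subunit, and of Ppp3cb, the catalytic subunit with the largest change after stimulation, are shown because the results turn on these 3 genes. Each is read 5′ to 3′ on the strand of the gene, with matches to the NFAT core motif in capitals. That motif is GGAAA on one strand, which reads as TTTCC where it lies on the other. Rcan1 lies on the minus strand at chr11:45118187-45118486, Ppp3ca on the plus strand at chr2:227839357-227839656, and Ppp3cb on the plus strand at chr15:3809012-3809311.
Rcan1: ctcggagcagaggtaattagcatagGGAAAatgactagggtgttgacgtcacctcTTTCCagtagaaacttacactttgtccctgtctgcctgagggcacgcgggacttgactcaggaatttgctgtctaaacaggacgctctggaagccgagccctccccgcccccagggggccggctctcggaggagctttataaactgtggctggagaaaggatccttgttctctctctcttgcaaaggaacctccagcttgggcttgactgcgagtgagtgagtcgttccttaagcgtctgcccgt
Ppp3ca: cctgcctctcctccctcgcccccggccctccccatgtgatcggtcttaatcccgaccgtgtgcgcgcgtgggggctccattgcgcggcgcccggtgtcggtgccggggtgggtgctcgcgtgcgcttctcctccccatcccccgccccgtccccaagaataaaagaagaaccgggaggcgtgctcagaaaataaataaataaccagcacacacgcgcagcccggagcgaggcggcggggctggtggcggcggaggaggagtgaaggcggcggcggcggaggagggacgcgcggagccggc
Ppp3cb: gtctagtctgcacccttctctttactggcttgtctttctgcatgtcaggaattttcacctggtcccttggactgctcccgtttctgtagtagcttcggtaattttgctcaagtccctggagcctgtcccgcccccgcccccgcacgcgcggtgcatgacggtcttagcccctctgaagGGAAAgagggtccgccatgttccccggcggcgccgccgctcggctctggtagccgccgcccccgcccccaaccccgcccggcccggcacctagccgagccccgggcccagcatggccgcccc

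The Rcan1 window held 2 matches to the NFAT core, which began 225 and 195 bases before the listed start. It also held 1 match to the AP-1 motif TGANTCA, 142 bases before the start, and 1 match to the CRE motif TGACGTCA, 207 bases before it. None of these matches overlapped another. The Ppp3cb window had 1 NFAT core match, 72 bases before the start, and the Ppp3r1 window (plus strand, chr14:95769596-95769895) had 1 at its first base, 250 bases before the start. The windows of Ppp3ca and Nfatc2 (minus strand, chr3:177732925-177733224) held no match to the NFAT core, AP-1 or CRE letters, and no window of the 5 held the EGR motif GCGTGGGCG, with both strands searched for all 4 motifs. Such matches are common for the short NFAT core, which was found in 62.7% of 33469 rat promoter windows of the same length, with 2 or more matches in 28.5%. The AP-1 letters were found in 7.33%, the CRE letters in 1.83% and the EGR letters in 0.544%. A match describes the letters of the window and is not a measured binding site. Only 1 listed start per gene was searched, and whether matches bear on the levels of these genes was not tested.

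The calcineurin subunits Ppp3r1 and Ppp3ca led the 10 genes in level in every group. In Ctrl cells Ppp3r1 (69.3 ± 4.77 FPKM, SD, n = 3) and Ppp3ca (64.4 ± 2.38) overlapped in their ranges and stood above 86.7% and 85.5% of the 10332 genes with a mean of at least 1 FPKM. Below them came, in order and without overlap, Nfatc3 (28.9 ± 0.892), Nfatc1 (25.3 ± 1.01), Nfat5 (19.2 ± 1.26) and Ppp3cb (8.90 ± 0.553). Ppp3cc (6.92 ± 0.380) and Nfatc2 (6.84 ± 0.295) overlapped, Rcan1 followed at 5.33 ± 0.419 and stood above 24.2% of those genes, and Nfatc4 was at 0.253 ± 0.0764. In IgE/DNP cells Nfat5 lay above Nfatc1, and in PF cells Ppp3cb and Nfat5, whose ranges overlapped there, both lay above Nfatc1, while Ppp3r1 lay above Ppp3ca without overlap.

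**Figure D1:**
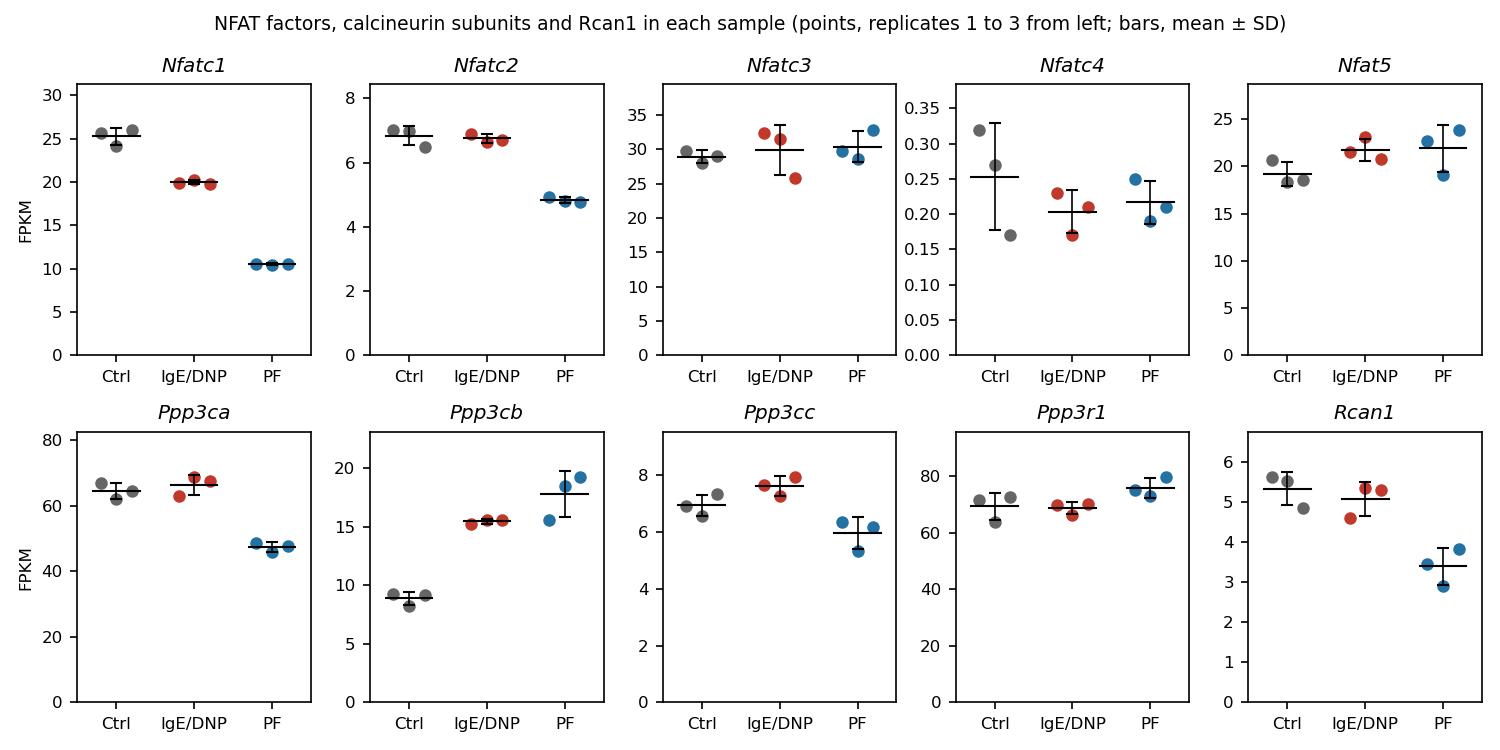
Transcript level in FPKM (vertical axes, from 0, a scale of its own for each gene) of the 10 genes in Ctrl, IgE/DNP and PF cells (horizontal axes). Each point is 1 sample and the bars give the mean ± SD of 3. Nfatc1 steps down from 25.3 to 20.0 to 10.5 FPKM, Ppp3cb lies higher in both stimulated groups than in Ctrl, and Rcan1, Ppp3ca and Nfatc2 are lower in the 3 PF samples than in the other 6.

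The first comparison set IgE/DNP against Ctrl cells. Among the 9 genes that could be tested, Ppp3cb rose 1.74-fold and Nfatc1 fell by 21.0%, and the other 7, Rcan1 included, did not pass the test. Nfatc4, below 1 FPKM in all 9 samples, was too low to be tested in any comparison. Genes were tested with limma on log2(FPKM + 1), with Benjamini-Hochberg adjustment over all genes tested and called at an adjusted p of at most 0.05, so that fold changes in log2 are on that scale and understate changes of low genes. Of 10392 genes tested, 29.2% were called, 14.7% as higher and 14.4% as lower. The 2 of 9 called here are to be read against these shares. At a Q of at most 0.05 the study, with DESeq2, reported far fewer genes after DNP-HSA. The reason for this difference was not tested. The median log2 fold change was 0.04 over the 9 genes and -0.01 over all genes tested.

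The second comparison set PF against IgE/DNP cells, where pretreatment differs and, by the label with later times, stimulation time too. Nfatc1, Nfatc2, Rcan1, Ppp3ca and Ppp3cc were lower in PF than in IgE/DNP cells, Ppp3r1 was higher, and Ppp3cb, Nfatc3 and Nfat5 did not pass. Many genes differed between PF and IgE/DNP cells, since 48.8% of the 10329 genes tested were called, 18.1% as higher and 30.7% as lower. The 6 of 9 called, 5 of them lower, stand against that background. The median log2 fold change was -0.31 over the 9 genes and -0.04 over all genes tested. The third comparison, PF against Ctrl, shares its samples with the other two and called 5 of 9 genes, with Nfatc1, Nfatc2, Rcan1 and Ppp3ca lower and Ppp3cb higher, against 57.7% of 10361 genes called, 23.1% as higher and 34.6% as lower. The median log2 fold change there was -0.19 over the 9 genes and -0.05 over all genes tested.

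The PF samples had larger FPKM sums (610206 to 630069) than the Ctrl and IgE/DNP samples (573023 to 591539), so the comparisons were repeated under other scalings. Higher genes made up 37.1% of the calls between PF and IgE/DNP with the values as deposited, 51.5% after scaling by median ratios and 16.8% after scaling to equal sums. Between PF and Ctrl the shares were 40.0%, 51.1% and 26.7%. Under both scalings Nfatc1, Nfatc2, Rcan1, Ppp3ca and Ppp3cc stayed lower in PF than in IgE/DNP cells at an adjusted p below the threshold, whereas the call on Ppp3r1 was lost with equal sums (log2 fold change 0.04, limma adjusted p = 0.476). In such bulk samples, fewer cells that express a gene and less RNA per cell cannot be told apart.

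**Figure D2:**
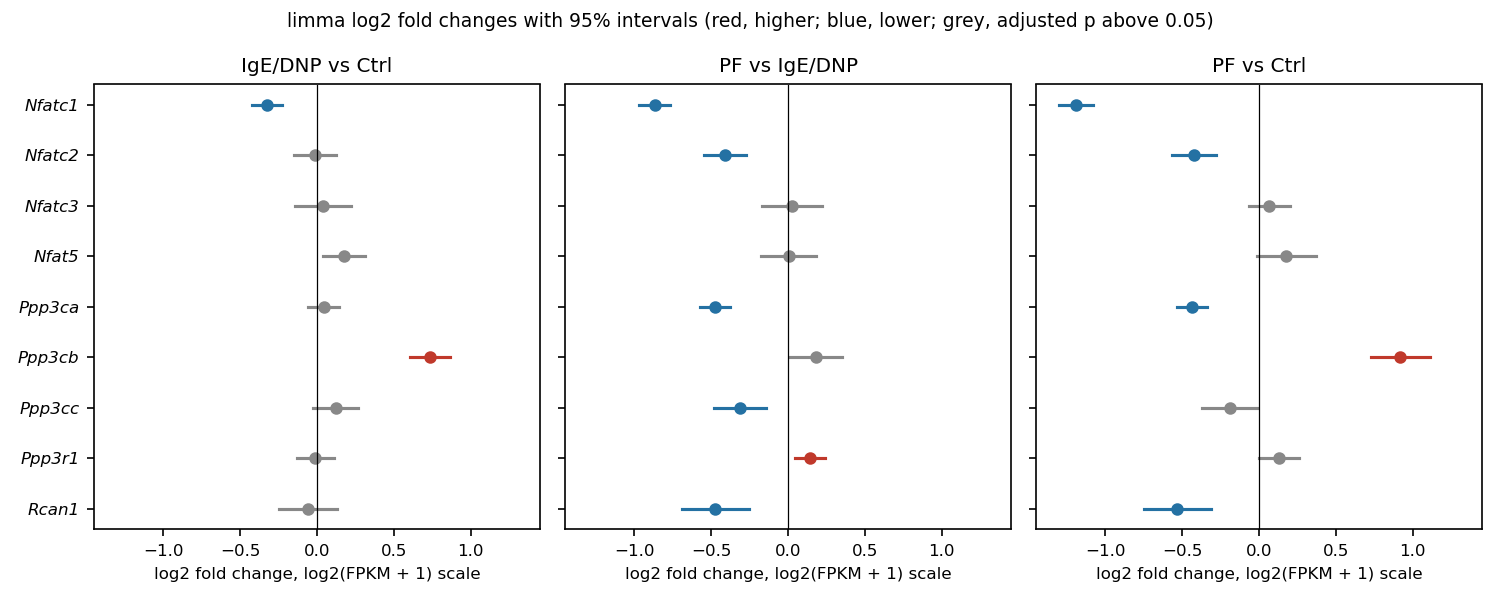
Log2 fold change with its 95% interval (horizontal axes, log2(FPKM + 1) scale, limma) for the 9 tested genes in the 3 comparisons. Red marks genes called higher, blue genes called lower and grey genes that did not pass. Nfatc1 is called lower in all 3 panels, Ppp3cb is called higher in both comparisons with Ctrl, and Nfatc2, Rcan1 and Ppp3ca are called lower in both comparisons of PF.

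Nfatc1, the NFAT factor that is itself under NFAT control in lymphocytes, had the largest change of the 10 genes between PF and IgE/DNP cells. Its level was 25.6, 24.1 and 26.0 FPKM in the 3 Ctrl samples, 19.9, 20.2 and 19.8 in IgE/DNP and 10.6, 10.4 and 10.6 in PF. Every IgE/DNP sample lay below every Ctrl sample, and every PF sample lay below both. The log2 fold change was -0.32 (SE 0.0440, limma adjusted p = 0.00136) after stimulation and -0.87 (SE 0.0442, adjusted p = 1.38e-06) for PF against IgE/DNP, a fall by 47.4%. Against Ctrl it was -1.19 (SE 0.0495, adjusted p = 1.04e-06). The exact two-sided permutation test gave p = 0.1 each time, the smallest that 3 against 3 samples allow.

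Nfatc2, the NFAT factor first described in T cells and known to drive cytokine genes in MCs, was at 7.03, 6.99 and 6.50 FPKM in Ctrl, at 6.90, 6.65 and 6.72 in IgE/DNP and at 4.92, 4.82 and 4.76 in PF. Ctrl and IgE/DNP overlapped, with a log2 fold change of -0.01 and a 95% interval from -0.15 to 0.12. All 3 PF samples lay below the other 6, with a log2 fold change of -0.41 against IgE/DNP (SE 0.0597, limma adjusted p = 0.000554) and of -0.43 against Ctrl (SE 0.0630, adjusted p = 0.000542).

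Nfatc3, a broadly expressed NFAT factor, was the most abundant NFAT transcript in all 3 groups. It was at 29.8, 28.0 and 29.1 FPKM in Ctrl, at 32.4, 31.5 and 25.8 in IgE/DNP and at 29.7, 28.5 and 32.9 in PF. The groups overlapped, and IgE/DNP replicate 3 was the lowest of all 9 samples. No comparison passed: the log2 fold change was 0.04 after stimulation (95% interval -0.14 to 0.22), 0.03 for PF against IgE/DNP (-0.17 to 0.22) and 0.07 for PF against Ctrl (-0.07 to 0.20).

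Nfatc4, the NFAT factor known from neurons and heart, was between 0.17 and 0.32 FPKM in all 9 samples, with overlapping groups. Nfat5 was at 20.6, 18.4 and 18.5 FPKM in Ctrl, at 21.5, 23.1 and 20.7 in IgE/DNP and at 22.7, 19.1 and 23.9 in PF. The IgE/DNP samples all lay above the Ctrl samples, by a margin that did not pass (log2 fold change 0.17, SE 0.0601, limma adjusted p = 0.0614). That comparison passed when Ctrl replicate 1 was left out (0.22, adjusted p = 0.0274). PF overlapped both groups, and the log2 fold change of 0.00 against IgE/DNP had a 95% interval from -0.18 to 0.18.

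Because the levels are per length, the make-up of the NFATc family can be read within each sample, where scaling between samples has no part. Nfatc1 made up 41.2% ± 0.819 (SD, n = 3) of the summed Nfatc1 to Nfatc4 level in Ctrl, 35.2% ± 2.2 in IgE/DNP and 22.9% ± 0.956 in PF. Nfatc3 made up 47.2% ± 0.200, 52.5% ± 2.96 and 66.1% ± 1.59, and for both genes no group overlapped another. Nfatc2 stayed between 9.84% and 12.8% in all 9 samples, and Nfatc4 was below 1% in all 9. The summed level was 61.3 ± 1.73 FPKM in Ctrl, 56.8 ± 3.80 in IgE/DNP and 45.9 ± 2.27 in PF, with Ctrl and IgE/DNP overlapping. The Nfatc1 and Nfatc3 shares gave p = 0.1 in each of the 3 comparisons (exact two-sided permutation test), the smallest that 3 against 3 samples allow, and 0.135 after adjustment over 27 tests of 9 ratios.

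Calcineurin pairs a catalytic with a regulatory subunit. Ppp3ca, the alpha catalytic subunit and the main form in many tissues, was at 66.8, 62.1 and 64.4 FPKM in Ctrl, at 63.0, 68.8 and 67.4 in IgE/DNP and at 48.6, 45.8 and 47.8 in PF. Ctrl and IgE/DNP overlapped (log2 fold change 0.04, 95% interval -0.06 to 0.15), and every PF sample lay below both groups. Ppp3ca fell by 28.7% from IgE/DNP to PF, a log2 fold change of -0.48 (SE 0.0432, limma adjusted p = 3.48e-05), and was lower than in Ctrl by -0.44 (SE 0.0434, adjusted p = 6.02e-05). Its promoter window, printed above, had no NFAT core match.

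Ppp3cb, the beta catalytic subunit, moved the other way. It was at 9.29, 8.27 and 9.15 FPKM in Ctrl, at 15.2, 15.6 and 15.6 in IgE/DNP and at 15.6, 18.5 and 19.3 in PF. All 6 stimulated samples lay above the Ctrl samples. The log2 fold change was 0.74 after stimulation (SE 0.0568, limma adjusted p = 0.000116), which is 1.74-fold in FPKM, and 0.92 for PF against Ctrl (SE 0.0843, adjusted p = 3.84e-05), which is 2.00-fold. PF and IgE/DNP overlapped and did not pass (0.18, SE 0.0741, adjusted p = 0.0687). The PF value depends on the replicates: it was 0.27 (adjusted p = 0.00466) without PF replicate 1 and 0.01 with PF replicate 1, the sample labelled 4 h in both fields, as the only PF sample, where the lone sample is assumed to vary like the other group. Median-ratio scaling gave 0.24 (adjusted p = 0.0228).

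Ppp3cc, the gamma catalytic subunit that is best known from testis, was at 6.91, 6.55 and 7.31 FPKM in Ctrl, at 7.66, 7.25 and 7.93 in IgE/DNP and at 6.36, 5.32 and 6.17 in PF. PF lay below both other groups. The log2 fold change was -0.31 for PF against IgE/DNP (SE 0.0755, limma adjusted p = 0.00837), a call that was lost with PF replicate 1 as the only PF sample (-0.23, adjusted p = 0.0991). It was -0.19 for PF against Ctrl and 0.12 for IgE/DNP against Ctrl, and neither passed.

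Ppp3r1, the calcium-binding regulatory subunit, was at 71.6, 63.8 and 72.4 FPKM in Ctrl, at 69.8, 66.2 and 70.0 in IgE/DNP and at 75.0, 72.9 and 79.7 in PF. Stimulation gave -0.01 (95% interval -0.13 to 0.11). PF lay above both groups in all 3 samples, by 0.14 in log2 against IgE/DNP (SE 0.0426, limma adjusted p = 0.0228). Apart from the scaling named above, that call was lost without IgE/DNP replicate 2 (0.12, adjusted p = 0.0861), without PF replicate 3 (0.11, adjusted p = 0.0583) and with PF replicate 1 as the only PF sample (0.13, adjusted p = 0.0928).

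The make-up of the catalytic subunits was read within each sample in the same way. Ppp3ca made up 80.3% ± 0.560 (SD, n = 3) of the summed level of the 3 catalytic subunits in Ctrl, 74.2% ± 0.852 in IgE/DNP and 66.6% ± 1.99 in PF. Ppp3cb made up 11.1% ± 0.291, 17.3% ± 0.364 and 25.0% ± 2.55. For both genes the 3 groups were apart from each other, while the Ppp3cc share overlapped between groups at means of 8.63%, 8.52% and 8.36%. The summed catalytic level was 80.3 ± 3.12 FPKM in Ctrl, 89.5 ± 3.16 in IgE/DNP and 71.1 ± 1.86 in PF, again with no overlap. The level of Ppp3r1 per catalytic FPKM was 0.862, 0.768 and 1.07 in the same order. Each comparison of the Ppp3ca share, the Ppp3cb share and this ratio gave p = 0.1 (exact two-sided permutation test). This is the smallest that 3 against 3 samples allow, and adjustment over the 27 tests gave 0.135, so none could pass.

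**Figure D3:**
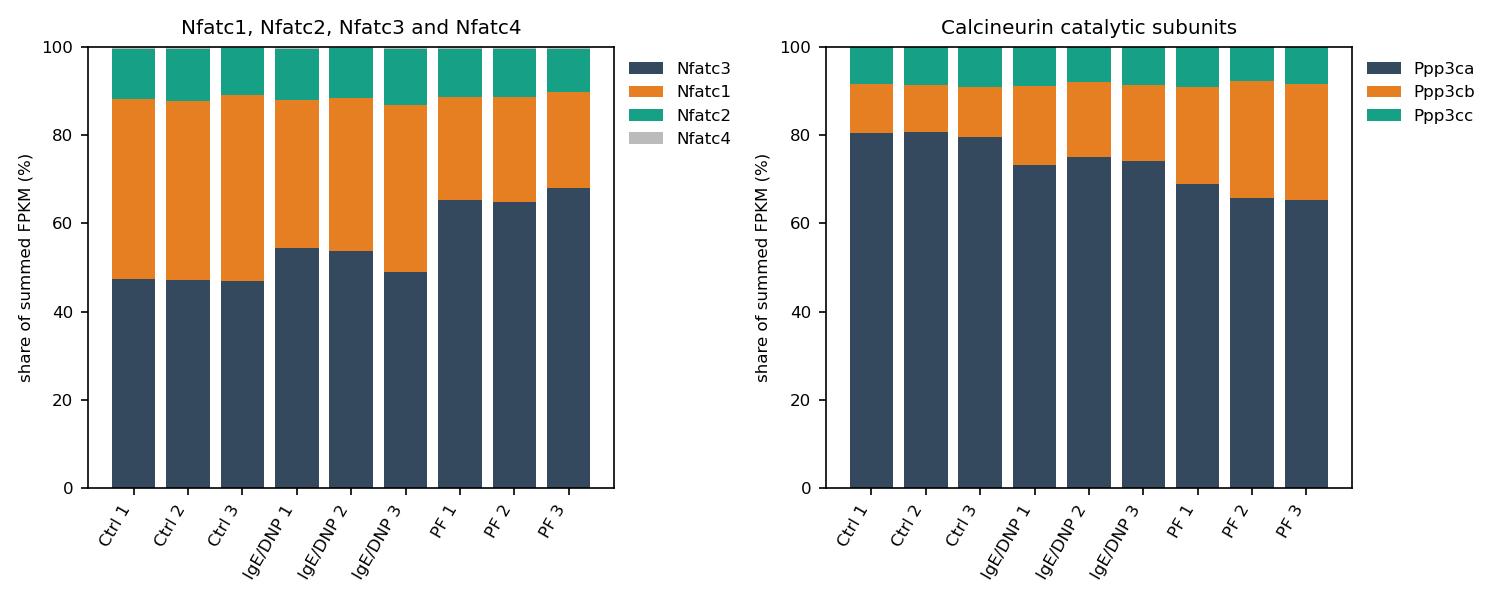
Share of the summed FPKM (vertical axes, 0 to 100%) taken by each NFATc gene (left) and each calcineurin catalytic subunit (right) in each of the 9 samples (horizontal axes). From Ctrl to IgE/DNP to PF the mean Nfatc1 share goes from 41.2% to 35.2% to 22.9% and the mean Ppp3cb share from 11.1% to 17.3% to 25.0%.

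Rcan1, whose promoter window held both NFAT core and AP-1 letters, passed the test in both comparisons of PF but not after stimulation. It was at 5.62, 5.52 and 4.85 FPKM in Ctrl, at 4.59, 5.35 and 5.29 in IgE/DNP and at 3.46, 2.89 and 3.82 in PF. Ctrl and IgE/DNP overlapped, with a log2 fold change of -0.06 and a 95% interval from -0.25 to 0.13 (limma adjusted p = 0.620). All 3 PF samples lay below the other 6. Rcan1 fell by 33.2% from IgE/DNP to PF (-0.47, SE 0.0969, adjusted p = 0.00359) and was lower in PF than in Ctrl by -0.53 in log2 (SE 0.0967, adjusted p = 0.00169). Per 100 FPKM of catalytic subunits, Rcan1 was at 6.65 ± 0.602, 5.67 ± 0.278 and 4.76 ± 0.550 in Ctrl, IgE/DNP and PF (SD, n = 3), with no overlap between the groups. Each comparison of this ratio gave p = 0.1 (exact two-sided permutation test), the smallest that 3 against 3 samples allow, and 0.135 after adjustment. None could therefore pass. The catalytic sum by which Rcan1 is divided was itself 80.3 FPKM in Ctrl and 89.5 in IgE/DNP.

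Known NFAT target genes of MCs and lymphocytes were taken as a list of 19, of which 14 had values and 11 were tested after stimulation. Of these 11, 9 rose, none fell and 2 did not pass, where 14.7% of all genes were called higher, with a median log2 fold change of 1.59 against -0.01 over all genes. Egr2, Nr4a1 and Nr4a3 were below 1 FPKM in all Ctrl samples and entered the test through the group in which they were high. The list was also chosen with earlier results of these data known, so this count is a description and not a test of the list. Egr3, an immediate early transcription factor, went from 2.04, 2.82 and 2.64 FPKM in Ctrl to 42.0, 47.7 and 45.0 in IgE/DNP (log2 fold change 3.72, SE 0.0906, limma adjusted p = 1.56e-07). Il3, a growth factor for MCs and basophils, went from a mean of 4.18 to 20.1 FPKM (2.02, adjusted p = 2.47e-06). The mean of the nuclear receptor gene Nr4a3 went from 0.167 to 3.83 FPKM. The 2 that did not pass were Tnf (0.34) and Irf4 (-0.14), and Rcan1 itself was at -0.06.

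In PF against IgE/DNP cells, 9 of 11 targets fell, 1 rose and 1 did not pass, where 30.7% of all genes were called lower, with a median of -1.07 against -0.04 over all genes. Nr4a3 and Irf4, both among the 9, were below 1 FPKM in all PF samples and entered this test only through IgE/DNP, so the count is a description here too. Egr3 fell to 6.70, 7.58 and 7.28 FPKM (-2.49, limma adjusted p = 6.02e-08), and Il4, the cytokine of type 2 immunity, from a mean of 12.3 to 3.49 FPKM (-1.59, adjusted p = 1.68e-05). The mean of Nr4a3 went from 3.83 to 0.66 FPKM. Tnf, an inflammatory cytokine, was the gene that rose, from 9.24, 7.49 and 8.15 FPKM in IgE/DNP to 20.7, 15.4 and 15.2 in PF (0.95, adjusted p = 0.000214). Against Ctrl, 8 of 10 targets were higher in PF, 1 was lower and 1 did not pass, where 23.1% of all genes were called higher, with a median of 0.55 against -0.05 over all genes. Egr2 and Nr4a1, below 1 FPKM in Ctrl, entered this test only through PF, and Irf4, the 1 lower gene, only through Ctrl, so this count is again a description. Tnf (1.29) and Egr3 (1.23) were among the higher genes, and the mean of Egr2 went from 0.0767 FPKM in Ctrl to 1.36 in PF, while Rcan1 at -0.53 lay below Ctrl. With PF replicate 1 as the only PF sample, 3 of 8 tested targets were higher than in Ctrl and 1 lower, and without that sample 6 of 8 were higher and 1 lower.

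**Figure D4:**
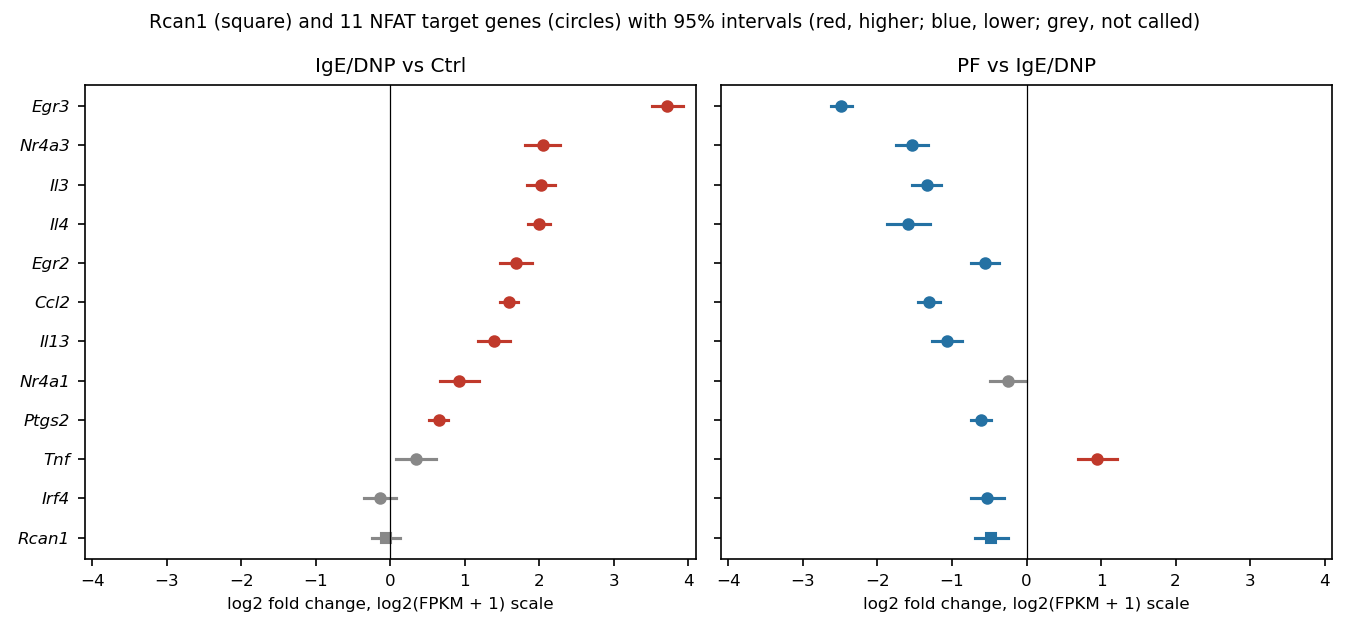
Log2 fold change with its 95% interval (horizontal axes, log2(FPKM + 1) scale, limma) of Rcan1 (square) and the 11 tested NFAT target genes (circles) for IgE/DNP against Ctrl (left) and PF against IgE/DNP (right), 2 comparisons that share the IgE/DNP samples. The 9 targets called higher are red on the left, where Rcan1 sits at -0.06. On the right Rcan1 sits at -0.47, a smaller fall than that of each of the 9 targets in blue (lower), with Tnf in red at 0.95.

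Regulators and partners of calcineurin formed a list of 13, of which 12 had values and 10 were tested. After stimulation 2 rose, 1 fell and 7 did not pass, a count near the 29.2% of all genes called, with a median log2 fold change of 0.05. Calm2, a calmodulin gene, rose by 0.17 (from 82.8 to 93.1 FPKM, limma adjusted p = 0.0302). Rcan3, a relative of Rcan1, fell by 0.26 on the log2 scale (5.97 to 4.81 FPKM, adjusted p = 0.0294). In PF against IgE/DNP cells 6 rose and none fell, with a median of 0.18, where 18.1% of all genes were called higher, but with equal sums only 3 of the 10 passed. The 3 with the largest change, Bad (0.28), a cell death regulator that calcineurin dephosphorylates, Calm2 (0.27) and Ppia (0.26), the cyclophilin that binds cyclosporin, passed under both scalings. Against Ctrl 7 were higher in PF and 1 lower, where 23.1% and 34.6% of all genes were called so, with a median of 0.25. Calm2 (0.43) was among the higher genes and Rcan3 (-0.33, limma adjusted p = 0.00933) was the lower one. With PF replicate 1 as the only PF sample Rcan3 did not pass (-0.20, adjusted p = 0.207), and 5 were higher and none lower.

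Kinases that phosphorylate NFAT and factors of its nuclear transport formed a list of 23, with Homer2 and Homer3 counted in. Of these, 22 had values and 19 were tested. After stimulation 4 rose and 3 fell, where 29.2% of all genes were called, among them the kinases Csnk1e (-0.36, limma adjusted p = 0.0191), Gsk3a (0.33, adjusted p = 0.00325) and Csnk1d (-0.31, adjusted p = 0.000929). Between PF and IgE/DNP cells 2 rose and 6 fell, and between PF and Ctrl 3 were higher and 7 lower. These counts do not exceed the 48.8% and 57.7% of all genes called in those comparisons. The median log2 fold changes of the list were -0.05, 0.01 and -0.04 in the 3 comparisons. Between PF and IgE/DNP, 6 rose and 5 fell after median-ratio scaling, and none rose and 7 fell with equal sums. Dyrk3, a kinase of the DYRK family, had the largest change of the list. It was at 77.9, 75.4 and 77.3 FPKM in Ctrl, at 65.5, 60.5 and 61.3 in IgE/DNP and at 18.9, 20.9 and 23.1 in PF, with no overlap between groups. Its log2 fold change was -1.53 against IgE/DNP (SE 0.0684, adjusted p = 7.80e-07) and -1.83 against Ctrl (SE 0.0672, adjusted p = 6.41e-07). Dyrk2, a kinase that phosphorylates NFAT, went from means of 15.2 and 16.3 FPKM in Ctrl and IgE/DNP to 7.12 in PF (-1.10 against IgE/DNP, adjusted p = 2.08e-06, and -0.99 against Ctrl, adjusted p = 1.03e-05). Csnk1g1, a casein kinase, went from 6.00 and 5.08 to 3.22 FPKM (-0.52 against IgE/DNP, adjusted p = 0.000918, and -0.73 against Ctrl, adjusted p = 4.02e-05). These 3 kinases were lower in PF under both scalings.

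Other calcineurin substrates, with Nfatc2ip counted in, formed a list of 11, of which 10 had values and were tested. After stimulation Dnm1l, the mitochondrial fission GTPase, rose from 20.8 to 30.7 FPKM (0.54, limma adjusted p = 0.000244), and 3 genes fell, led by Mef2d (-0.28, adjusted p = 0.00398) and Tfe3 (-0.17, adjusted p = 0.0241). The median log2 fold change of the list was -0.13 after stimulation, -0.02 for PF against IgE/DNP and -0.15 for PF against Ctrl. The counts called in this list are to be read against 29.2%, 48.8% and 57.7% of all genes called in the 3 comparisons. Between PF and IgE/DNP none rose and 2 fell, Tfe3, a transcription factor of lysosome genes (20.9 to 12.5 FPKM, -0.69, adjusted p = 4.97e-06), and Mef2d, a transcription factor that calcineurin activates in muscle and lymphocytes (32.6 to 25.6 FPKM, -0.34, adjusted p = 0.00112). Against Ctrl 1 was higher in PF (Dnm1l, 0.54) and 5 were lower, led by Tfe3 (-0.86) and Mef2d (-0.62), and 3 were lower after median-ratio scaling and 2 with PF replicate 1 as the only PF sample.

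Osmotic target genes of Nfat5 formed a list of 9, of which 7 had values and 5 were tested. Of these 5, 2, 2 and 3 were called in the 3 comparisons, beside 29.2%, 48.8% and 57.7% of all genes. After stimulation the heat shock protein gene Hspa4l rose (7.55 to 11.0 FPKM, 0.49, limma adjusted p = 0.00188) and the amino acid transporter gene Slc38a2 fell (222.2 to 181.4 FPKM, -0.29, adjusted p = 0.00498). Between PF and IgE/DNP none rose and 2 fell, Hspa4l (to 6.66 FPKM, -0.65, adjusted p = 5.06e-05) and the taurine transporter gene Slc6a6 (56.5 to 49.1 FPKM, -0.20, adjusted p = 0.00194). Against Ctrl the inositol transporter gene Slc5a3 was higher in PF (1.97 to 3.16 FPKM, 0.49, adjusted p = 0.00726), and Slc38a2 (-0.35) and Slc6a6 (-0.16) were lower. The call on Slc6a6 was lost after median-ratio scaling (-0.10, adjusted p = 0.0997), where 2 of the list were higher and 1 lower, and with PF replicate 1 as the only PF sample (adjusted p = 0.211). The median log2 fold changes of the list were 0.04, -0.06 and -0.16.

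The genes whose pattern over the 9 samples was most like that of Rcan1 or Nfatc1 were found among the 10280 genes with a mean of at least 1 FPKM by the root mean square of the differences between their log2(FPKM + 1) profiles, each centred on its own Ctrl mean, where 0 is an identical pattern. For Rcan1 they were Cdk19 (0.0630), RGD1311745 (0.0658), Ammecr1l (0.0671), RGD1306941 (0.0676) and Pik3ca (0.0706). Cdk19, a kinase of the Mediator complex, was at 15.7, 14.7 and 10.5 FPKM in Ctrl, IgE/DNP and PF. For Nfatc1 they were Ypel5 (0.0444), Gigyf1 (0.0561), Lgr6 (0.0567), Fhdc1 (0.0572) and Gbp5 (0.0611). Ypel5 was at 34.4, 26.4 and 15.0 FPKM in the same order. These likenesses describe 9 samples that share 3 groups and carry no test.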

How the data were processed

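RNA-seq of 9 RBL-2H3 samples was analysed. Per the labels and the study's methods, SOAPnuke served the authors for read filtering, HISAT2 2.0.4 for mapping, and RSEM 1.2.12 with Bowtie2 2.2.5 for quantification, on rn6. The labels name Illumina library protocols and the methods a BGISEQ-500 sequencer. The values the authors deposited, headed only as expression, were read as FPKM, since decimals occur, totals differ between samples and RSEM gives that unit. FPKM are scaled to each library's total, so a change in a few abundant genes moves all others. Of 38490 genes per sample, 20484 had no value and 18006 were used, joined by gene identifier because samples list genes in 5 orders. Read totals are not given in the sources used here, so the depth behind each value is unknown. The value of 1 fragment in 3 low genes gave relative depths of 0.975 to 1.015. Genes were kept only if that value was nearly equal in all 9 samples. Depths near 1 thus follow from the choice of genes and cannot show equal depth.

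A gene was tested in a comparison if 3 or more of its 6 samples reached 1 FPKM. The test was limma 3.58.1 in R 4.3.3, with a trend in eBayes, applied to log2(FPKM + 1). Single genes and within-sample ratios were also tested with exact two-sided permutation tests (scipy 1.17.1). The study's methods name DESeq2, which needs counts and was not used here. From each list the text names up to 3 called genes with the largest change per comparison; a few others (Tnf after stimulation and in PF against IgE/DNP, Irf4, Egr2 after stimulation, Nr4a1) were named after their values were seen. The 10 genes and all lists were chosen with earlier results of these data known. The values of 1 gene that this rule names are not reported here. Markers and lists had 13 genes without a value. Alternatives were another pseudocount, no filter, a stricter threshold, 2 scalings, all 9 samples in 1 fit, no trend, the replicate number as a block, each replicate left out, and PF replicate 1 as the only PF sample. Promoter windows came from RefSeq (GRCr8), a build other than that of the values, and serve only to show sequence.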

Additional observations from a re-analysis of the deposited data

How the results depend on the processing

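The calls on Nfatc1 in all 3 comparisons, on Ppp3cb against Ctrl, and on Nfatc2, Rcan1 and Ppp3ca in both comparisons of PF held under every alternative tried. For Rcan1 between PF and IgE/DNP the log2 fold change ranged from -0.57 to -0.39 and the limma adjusted p reached at most 0.0256, and for Nfatc1 it ranged from -0.96 to -0.81. After stimulation Rcan1 ranged from -0.12 to 0.00 and passed under none. The number of genes called after stimulation was 3031 and was 1469 at a threshold of 0.01. The replicate numbers gave no sign of pairing for IgE/DNP and Ctrl or for PF and IgE/DNP. There the correlation of the deviations of same-numbered samples ran from -0.0739 to 0.0514 and from -0.0822 to 0.0005. For PF and Ctrl it ran from 0.083 to 0.189, and every sample correlated best with its own number. That is a hint of pairing from the data and not from the design. With the replicate number as a block, 2697, 4675 and 6009 genes were called in the 3 comparisons, against 3031, 5042 and 5975 without it. In PF against Ctrl the block added Ppp3cc (-0.19, limma adjusted p = 0.0475) and Ppp3r1 (0.13, adjusted p = 0.0305). After stimulation no calcineurin regulator passed as lower with the block, so the call on Rcan3 was lost. Ppp3cc also passed there with all 9 samples in 1 fit (adjusted p = 0.0409) and with equal sums (adjusted p = 0.0273), and Ppp3r1 and Nfat5 with median ratios (adjusted p = 0.0168 and 0.0306). Nfat5 passed there without PF replicate 2 as well (0.27, adjusted p = 0.0115). Ppp3r1 between PF and IgE/DNP was lost without the trend (adjusted p = 0.0565). The causes were not tested. DESeq2 and edgeR were not run, because the values are not counts. The unknown depth limits what can be said of Nfatc4, which was listed below 1 FPKM throughout.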
